A study of Homo sapiens with 4 samples.

Results

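The HOX genes encode transcription factors that hold a homeodomain, a DNA-binding fold. Human HOX genes lie in 4 clusters, HOXA on chromosome 7, HOXB on chromosome 17, HOXC on chromosome 12 and HOXD on chromosome 2. Every gene of the count table whose name was HOX, a cluster letter and a number was taken, which gave 39 of 61806 genes (11 HOXA, 10 HOXB, 9 HOXC and 9 HOXD). The samples were U118-MG cells, an established human glioma line, labelled wild type and grown in DMEM with fetal bovine serum. The cells of 1 group, NC, had been infected with a negative control lentivirus. The cells of the other group, SPNS2, had been infected with a lentivirus carrying SPNS2, a membrane transporter of sphingosine-1-phosphate, in the pCDH-CMV-MCS-EF1-puro vector, so both groups had been infected with lentivirus. RNA-seq was done on 2 libraries a group. The labels do not give the time after infection, and do not say whether the cells were a pool or a clone or whether the libraries came from separate cultures, so the p-values measure only the spread between these libraries, which may be technical.

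The number in a HOX name is its paralogue group, and genes of 1 number in different clusters descend from a common ancestral gene. In the embryo, low-numbered genes, at the 3′ end of a cluster, are switched on early and towards the head, and high-numbered genes later and towards the tail. Retinoic acid activates 3′ genes, Polycomb proteins hold clusters silent, trithorax and MLL proteins keep them active, and TALE homeodomain proteins (PBX, MEIS, PKNOX) bind DNA together with HOX proteins. The adult forebrain expresses few HOX genes, and HOX expression has been described in gliomas.

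Some HOX genes share sequence or exons with others, which bears on how their reads were counted. Over protein-coding transcripts, the share of 50-base words found again in other genes was 0 for HOXC8, HOXC9, HOXC11 and HOXC13, 19.6% for HOXC4, 13.1% for HOXC6 and 6.2% for HOXC10, and where words were shared the other copy belonged to an overlapping gene of the HOXC cluster. HOXC5 shared 58.9% and HOXD4 76.5%, again with overlapping gene models, the largest shares among the 12 tested genes.

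The 4 libraries held 31353373 to 34125159 counts. Values are given as counts and as CPM (the share of a library's counts on a fixed scale), scaled by TMM, a method that sets the libraries to a common level, and 1 count was 0.0297 to 0.0325 CPM. SPNS2 itself had 42 and 47 counts in NC and 7381 and 8224 in the SPNS2 libraries, vector and own gene together (log2 fold change 7.48, SE 0.09, edgeR adjusted p = 0.00028). Differences were tested with edgeR's quasi-likelihood test over 17853 genes and called at a Benjamini-Hochberg adjusted p under 0.05, which took 23.4% of genes (12.1% higher and 11.3% lower in SPNS2). The groups did not overlap for 66% of the genes tested, with SPNS2 above NC for 32.4% and below it for 33.6%. The astrocyte markers GFAP (0 and 8 counts in NC, 4 and 0 in SPNS2) and S100B (0 in all libraries) were at or near 0, and OLIG2 and SOX2 had at most 4 counts. The summed level of the 13 glioma and astrocyte markers, mostly vimentin, was 4470 and 5170 CPM in NC and 7310 and 6760 in SPNS2. The 8 fibroblast and mesenchymal markers summed to 5390 and 5220 CPM in NC and 4420 and 4220 in SPNS2, and 5 neuron markers to 73.9 and 121 in NC and 155 and 167 in SPNS2. The 5 epithelial markers summed to 1.31 to 3.03 CPM over the 4 libraries, the 5 endothelial markers to 5.15 to 8.57, and the 6 leucocyte markers, mostly CD68, to 130 and 111 in NC and 76.7 and 66.5 in SPNS2. The part of these marker differences in the HOX results was not tested.

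Of the 39 HOX genes, 15 had no counts in any library (5 HOXA, 2 HOXB, 1 HOXC and 7 HOXD). A further 12 had at most 14 counts in any library and did not pass the filter on low counts. The 12 genes tested were 8 HOXC genes, 3 HOXB genes and HOXD4. Of these, 3 were called, or 25.0% beside the 23.4% of all genes: HOXC4 and HOXC6 were lower in SPNS2 and HOXD4 was higher. Without adjustment, 6 of the 12 had p under 0.05, beside 37.9% of all genes tested. The groups did not overlap for 10 of the 12, beside 66% of all genes, and of these 6 were HOXC genes lower in SPNS2. The median log2 fold change of the 12 genes was -0.57, against -0.01 over all genes tested. In bulk samples, fewer cells expressing a gene and less RNA per cell cannot be told apart.

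**Figure D1:**
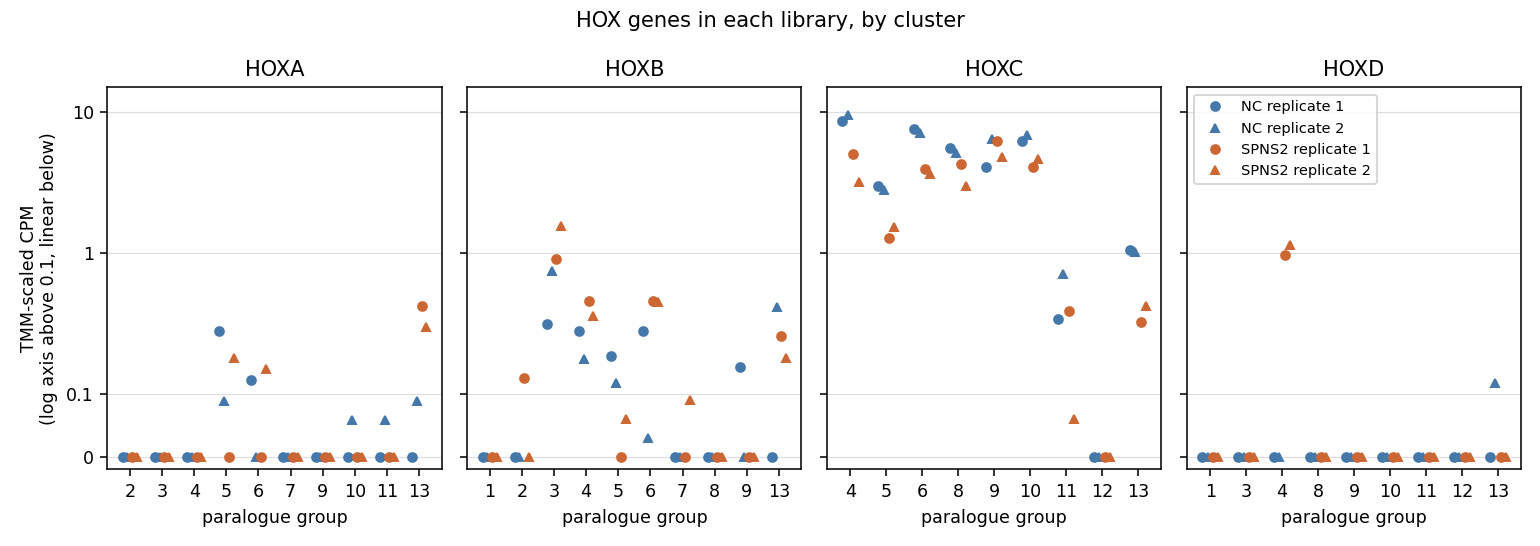
TMM-scaled CPM of HOX genes in each library, by cluster and paralogue group (log axis above 0.1 CPM, linear below). HOXC genes hold nearly all of the signal, HOXD4 is above 0 only in the SPNS2 libraries, and each plotted gene of the other clusters stays below 2 CPM.

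Most HOX counts came from HOXC. Together its 9 genes drew 1171 and 1329 counts with NC, or 94.8% (exact binomial 95% interval 93.4 to 96.0) and 94.9% (93.6 to 96.0) of all HOX counts. With SPNS2 they drew 788 and 708 counts, or 87.1% (84.7 to 89.2) and 82.1% (79.4 to 84.6). Intervals cover counting error only. Summed over the cluster, HOXC reached 38.0 ± 2.1 CPM in NC against 23.4 ± 3.09 in SPNS2 (mean ± SD, n = 2 each), a level 1.62-fold lower in SPNS2, with no overlap between groups. The summed HOXB level went the other way, from 1.35 ± 0.19 to 2.45 ± 0.346 CPM, and HOXA overlapped (0.78 and 0.505 CPM in NC, 0.617 and 0.78 in SPNS2). HOXD summed to 0 and 0.119 CPM in NC and to 0.975 and 1.14 in SPNS2. These sums were not tested.

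In genome order, along the plus strand of chromosome 12 (hg38), the cluster runs from HOXC13 at 53938765 to the 3′ end of HOXC4 at 54056030. HOXC4 (chr12:54016931-54056030), which acts in cervical patterning and is made by activated lymphocytes, had 279 and 319 counts in NC and 156 and 107 in SPNS2. That was 8.7 and 9.48 CPM against 5.07 and 3.21, so the groups did not overlap. It was 2.2-fold lower in SPNS2 (log2 fold change -1.14, SE 0.27, edgeR adjusted p = 0.0492), just inside the threshold. HOXC6 (chr12:53990624-54030823), which takes part in the identity of forelimb-level motor neurons, had 243 and 238 counts in NC and 122 and 121 in SPNS2, or 7.58 and 7.07 CPM against 3.96 and 3.63. Its replicates lay close together in both groups, and it was 1.93-fold lower in SPNS2 (log2 fold change -0.95, SE 0.18, edgeR adjusted p = 0.0272). These calls rest on all 4 libraries. With each library left out in turn, HOXC6 was called in 0 of 4 fits (edgeR adjusted p 0.0798 to 0.111) and HOXC4 in 1 of 4, the fit without SPNS2 replicate 1 (0.0398 to 0.158), while the log2 fold changes stayed between -1.0 and -0.88 for HOXC6 and between -1.49 and -0.84 for HOXC4. The number of genes called in all fell from 4171 to between 1712 and 2144 in those fits. With the replicate number as a block, adjusted p was 0.072 for HOXC6 and 0.0923 for HOXC4 by edgeR.

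The other HOXC genes were mostly lower too, without passing the test. HOXC5, between HOXC6 and HOXC4, had 96 and 95 counts in NC and 39 and 51 in SPNS2 (2.91 ± 0.121 and 1.4 ± 0.185 CPM, SD, n = 2 each). Its log2 fold change was -1.05 (SE 0.26, edgeR adjusted p = 0.052), just outside the threshold, and it was called with DESeq2 (adjusted p = 0.0494). A limit bears on this gene: 59.9% of its exon length is shared with another annotated gene model of the cluster, which had no counts. HOXC13, the 5′ end gene and a regulator of hair and nail keratins, had 34 and 34 counts in NC against 10 and 14 in SPNS2 (1.04 ± 0.0355 and 0.372 ± 0.067 CPM). The log2 fold change was -1.46 (SE 0.42, edgeR adjusted p = 0.0749). HOXC10, a lumbar-level gene, had 6.27 and 6.84 CPM in NC and 4.06 and 4.62 in SPNS2 (log2 fold change -0.59, SE 0.18, edgeR adjusted p = 0.0872). HOXC8, a gene of brachial and thoracic levels, had 5.52 and 5.11 CPM in NC and 4.26 and 3 in SPNS2 (log2 fold change -0.55, SE 0.25, edgeR adjusted p = 0.187). For all 4 genes the SPNS2 libraries lay below the NC libraries, which held for 33.6% of all genes tested. HOXC11 overlapped between groups, with 11 and 24 counts in NC and 12 and 2 in SPNS2, and HOXC12 had no counts.

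HOXC9, a thoracic-level gene that represses more anterior HOX genes in motor neurons, had a log2 fold change near 0. It had 130 and 217 counts in NC and 193 and 159 in SPNS2, or 4.06 and 6.45 CPM against 6.27 and 4.77, with overlapping groups (log2 fold change 0.07, SE 0.31, edgeR adjusted p = 0.893). Its NC libraries differed from each other by more than its groups did, and its log2 fold change moved with single libraries: -0.23 without NC replicate 1, 0.44 without NC replicate 2 and -0.12 without SPNS2 replicate 1. Its share of HOXC counts was 11.1% (9.36 to 13) and 16.3% (14.4 to 18.4) in NC and 24.5% (21.5 to 27.7) and 22.5% (19.4 to 25.7) in SPNS2, with no overlap between groups. The exact permutation p was 0.333 (two-sided), the smallest that 2 against 2 libraries allow, so a difference could not be shown by that test. HOXC4 went from 23.8% and 24.0% in NC to 19.8% and 15.1% in SPNS2, with the same exact p of 0.333. Without HOXC9, HOXC summed to 32.8 ± 0.41 CPM in NC against 17.9 ± 2.03 in SPNS2, which was 1.83-fold lower. As the mean level of HOXC9 was not lower in SPNS2, leaving it out could only make this fold larger. An antisense gene, HOXC-AS2, overlaps 163 bases of HOXC9 exons on the other strand and had 12, 8, 3 and 3 counts, in the order NC replicates 1 and 2, then SPNS2 replicates 1 and 2. Whether counting used strand is not given in the sources used here, so reads of HOXC9 and HOXC-AS2 may not be told apart.

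**Figure D2:**
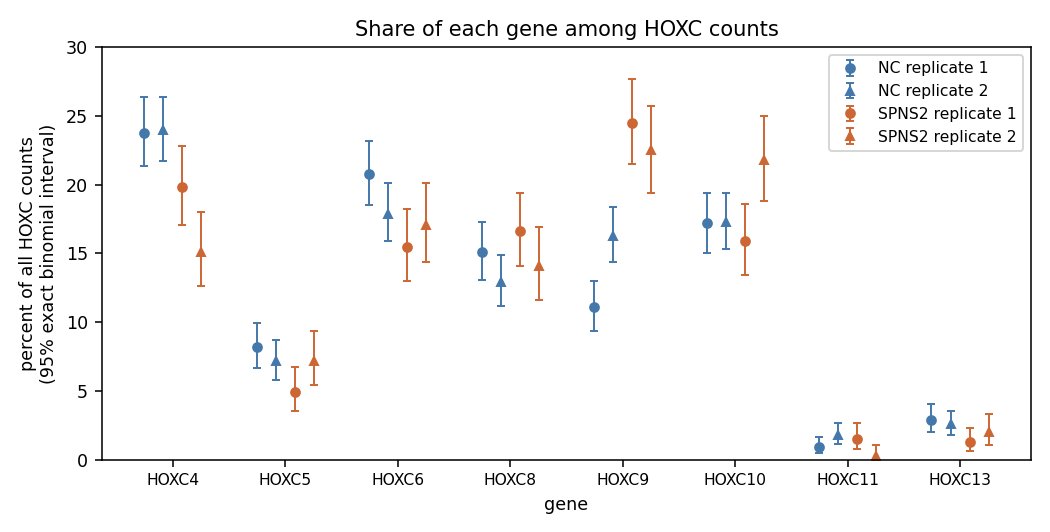
Percent of all HOXC counts that each HOXC gene took in each library, with exact binomial 95% intervals, which cover counting error only. HOXC9 took 11.1% and 16.3% with NC, against 24.5% and 22.5% with SPNS2, while HOXC4 took 23.8% and 24.0%, then 19.8% and 15.1%.

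By position, the fitted log2 fold changes of the 8 tested HOXC genes ran from -1.46 at HOXC13, the 5′ end, through 0.07 at HOXC9, to -1.14 at HOXC4, the 3′ end. In order from HOXC13 they were -1.46, -1.24, -0.59, 0.07, -0.55, -0.95, -1.05 and -1.14. The value nearest 0 lay in the middle of the cluster. Of the 8 values, 7 were below 0, with a median of -1.0, beside a median of -0.01 over all genes tested. No difference between neighbours was tested, HOXC11 had an SE of 0.98, and HOXC4 and HOXC6 share 484 bases of exon, 17.8% of the HOXC4 length and 13.7% of the HOXC6 length.

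**Figure D3:**
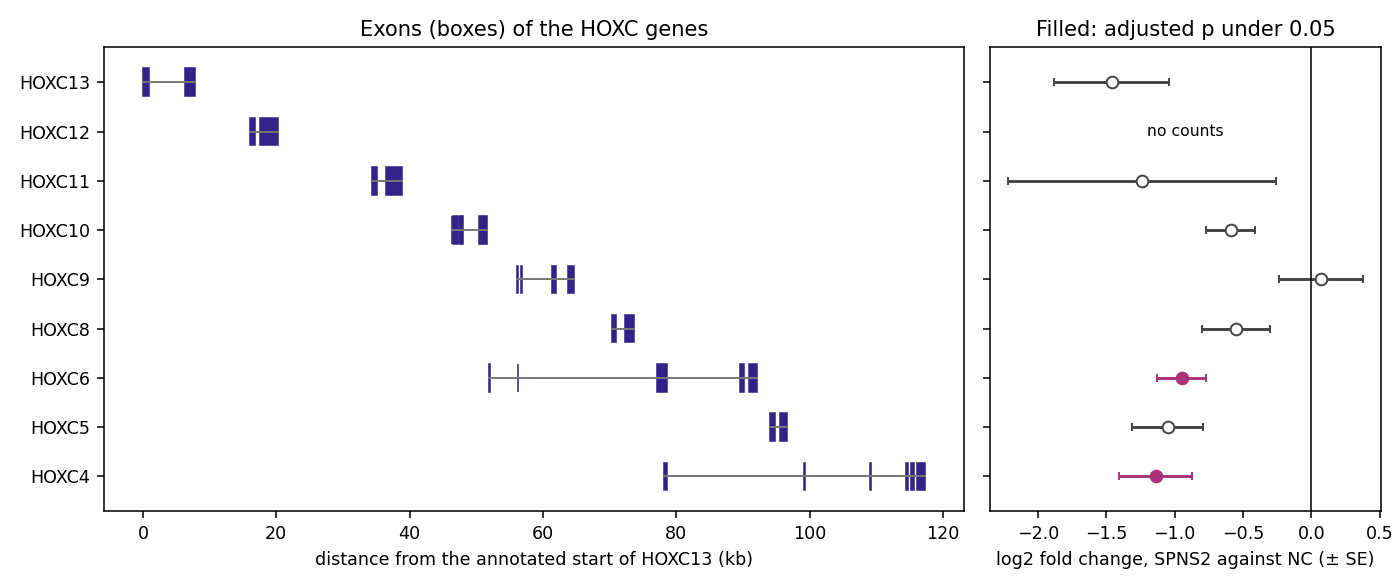
Left, exons of the 9 HOXC genes (boxes, to scale) by distance in kb from the annotated start of HOXC13; right, the log2 fold change of SPNS2 against NC with its SE from edgeR, filled where adjusted p was under 0.05. HOXC4 and HOXC6 are filled at -1.14 and -0.95, HOXC9 lies at 0.07, and HOXC12 had no counts.

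Levels per kilobase of exon, which allow genes to be compared, put HOXC4 first in NC at 3.34 ± 0.202 CPM per kb (SD, n = 2), ahead of HOXC9 at 3.13 ± 1.01, HOXC8 at 2.81 ± 0.153 and HOXC10 at 2.81 ± 0.173. These 4 levels lay within the spread of HOXC9. HOXC6 followed at 2.07 ± 0.102 and HOXC5 at 1.61 ± 0.0666 CPM per kb, then HOXC13 at 0.427 ± 0.0146 and HOXC11 at 0.162 ± 0.0801. In SPNS2 the first level was that of HOXC9 at 3.29 ± 0.632 CPM per kb, then HOXC8 at 1.92 ± 0.472, HOXC10 at 1.86 ± 0.17 and HOXC4 at 1.52 ± 0.483. HOXC10 lay within the spread of HOXC8, and HOXC10 and HOXC4 differed by less than the SD of HOXC4. With only the exon length free of other genes, HOXC5 was second in NC, at 4.01 ± 0.166 CPM per kb, so its place depends on the length used.

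The HOXB genes that passed the filter were 3′ genes and HOXB6. HOXB3 and HOXB4, which act in the hindbrain and in blood stem cells, had 10 and 25 counts and 9 and 6 counts in NC, and 28 and 52 and 14 and 12 counts in SPNS2. HOXB6 had 9 and 1 counts in NC and 14 and 15 in SPNS2. HOXB4 and HOXB6 passed the filter on low counts through the SPNS2 libraries alone, which favoured higher values there. All 3 genes had log2 fold changes above 0: 1.22 (SE 0.60), 0.82 (SE 0.59) and 1.53 (SE 0.99). For all 3 the SPNS2 libraries lay above the NC libraries, which held for 32.4% of all genes tested. None passed the test, with edgeR adjusted p of 0.218, 0.383 and 0.33; 0 of the 3 had an unadjusted p under 0.05, and 0 were called with DESeq2 or limma-voom. These genes also share exons: HOXB3 and HOXB6 share 433 bases, 16.6% of the HOXB6 length. HOXB3 and HOXB4 share 159 bases, 4.2% of the HOXB4 length. HOXB3 shares 13 of its 50-base words with HOXD3, which had no counts. Across the fits that each omit 1 library, their log2 fold changes ran from 0.73 to 1.97 for HOXB3, from 0.53 to 1.17 for HOXB4 and from 0.68 to 3.76 for HOXB6. Among the untested HOXB genes, HOXB13 had 0, 14, 8 and 6 counts (NC replicates 1 and 2, then SPNS2 replicates 1 and 2), HOXB5 6, 4, 0 and 2, and HOXB2, HOXB7 and HOXB9 had counts in 1 library each, at most 5.

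HOXD4 (chr2:176151222-176153226, plus strand), a gene of the hindbrain and a known direct target of retinoic acid receptors, was the HOX gene called higher. It had 0 and 0 counts in NC and 30 and 38 in SPNS2, or 0.975 and 1.14 CPM, so every SPNS2 library was above every NC library. Against 3 counts over the NC group, it was at least 23.2-fold higher (edgeR adjusted p = 0.0177). It passed the filter on low counts through the SPNS2 libraries alone. The call was kept in the fits without either NC library (edgeR adjusted p 0.0482 and 0.0478), and was lost without either SPNS2 library (0.0874 and 0.102) and with the replicate block (0.0748). Its annotated exons overlap another gene model on 80.5% of their length, and that model has no row of its own in the count table. Of the other HOXD genes, 7 had no counts and HOXD13, which patterns the distal limb, had 0 and 4 counts in NC and 0 and 0 in SPNS2.

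No HOXA gene was tested. HOXA2, HOXA3, HOXA4, HOXA7 and HOXA9 had no counts, and HOXA10 and HOXA11, abdominal and urogenital genes, had 2 counts each in NC replicate 2. HOXA5 had 9, 3, 0 and 6 counts and HOXA6 4, 0, 0 and 5, NC libraries first. HOXA13, which patterns the distal limb and the urogenital tract, had 0 and 3 counts in NC and 13 and 10 in SPNS2. Its summed counts, 3 against 23, gave a depth-adjusted ratio of 7.85 with a 95% counting interval of 2.37 to 40.8. This interval compares the libraries, not the conditions. No other untested HOX gene was given such a ratio, and HOXA13 was chosen for it with its values known. The interval is therefore no test of a difference. Without the filter on low counts, HOXA13 was not called (log2 fold change 2.9, edgeR adjusted p = 0.309). Of the 3 called genes, the paralogues HOXC4 and HOXD4 went opposite ways, HOXC4 lower and HOXD4 higher in SPNS2.

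The clusters also hold noncoding RNAs. Of 24 listed by name, 13 had no counts in any library, 2 were tested and none was called. Of these 2, 0 had an unadjusted p under 0.05 by edgeR, and 0 were called with DESeq2 or limma-voom. An unnamed lincRNA within HOXC, ENSG00000260597, lies outside that list and was chosen after its values were seen (log2 fold change -0.91, edgeR adjusted p = 0.091), and without adjustment it passed 0.05 where the 2 listed RNAs did not. HOTAIR, transcribed antisense within HOXC, had 16 and 27 counts in NC and 0 and 16 in SPNS2 (log2 fold change -1.41, SE 1.34, edgeR adjusted p = 0.503). Its log2 fold change was -0.42 without SPNS2 replicate 1 and -7.4 without SPNS2 replicate 2. HOTAIRM1, in HOXA, had 17 and 9 against 20 and 15 counts (0.46, SE 0.59, edgeR adjusted p = 0.623).

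To see whether the changes went beyond the clusters, tested genes within 2 Mb of each cluster were counted. Over all genes tested, 12.1% were called higher and 11.3% lower. Around HOXC, 6 of 72 were called higher and 9 lower, with a median log2 fold change of -0.11. The median was -0.14 over all chromosome 12 genes and -1.0 over the 8 tested HOXC genes. The nearest flanking genes were near 0: CALCOCO1 at -0.01 (edgeR adjusted p = 0.945), SMUG1, a uracil-DNA glycosylase, at 0.02 (0.938), and CBX5, which encodes heterochromatin protein HP1 alpha, at -0.04 (0.674). A little further out, 299.2 kb from the middle of the cluster, NFE2 had 4 and 0 counts in NC and 23 and 26 in SPNS2. It was not called (log2 fold change 3.56, SE 1.1, edgeR adjusted p = 0.0877), and passed the filter on low counts through the SPNS2 libraries alone. Of the 11 HOXC flank genes listed, 18.2% were called, beside 23.4% of all genes. HNRNPA1, an RNA-binding protein, was higher (log2 fold change 0.23, edgeR adjusted p = 0.0218) and MAP3K12, a kinase of stressed axons, was lower (-0.52, edgeR adjusted p = 0.0335). Neither was called in any fit with a library left out. Around HOXA 3 of 12 tested genes were higher and 1 lower, around HOXB 12 of 72 and 4, and around HOXD 5 of 23 and 2. The median log2 fold changes there were 0.26, 0.16 and -0.12. In the shorter flank lists, 3 of 7 HOXA, 2 of 12 HOXB and 2 of 8 HOXD genes were higher, and 0, 1 and 1 were lower. The shares called were 42.9%, 25.0% and 37.5%, in lists of few genes.

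**Figure D4:**
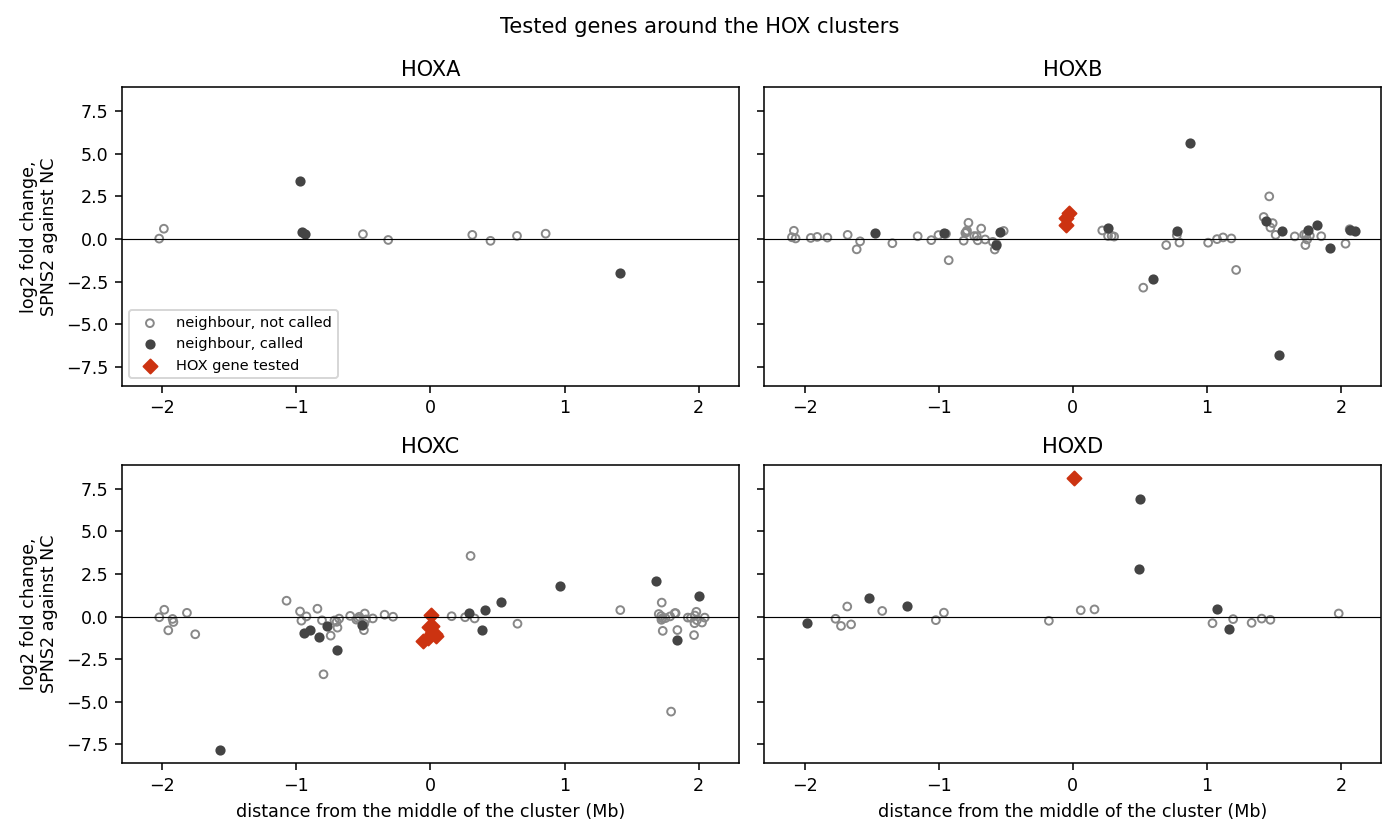
Log2 fold change of SPNS2 against NC for every tested gene within 2 Mb of each HOX cluster, by distance from the middle of the cluster (Mb), with tested HOX genes as diamonds and called neighbours filled. The HOXC genes, at -1.46 to 0.07, lie below the median of their neighbours (-0.11) except HOXC9, and no HOXA gene was tested.

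The TALE cofactors were expressed in both groups, at 186, 171, 187 and 180 CPM summed over 9 genes (NC replicates 1 and 2, then SPNS2 replicates 1 and 2). PBX3 alone was called, at 21.8 ± 1.89 CPM in NC and 30.3 ± 0.268 in SPNS2 (log2 fold change 0.47, SE 0.11, edgeR adjusted p = 0.0471), and this call was lost in each of 4 fits with a library left out. The 1 call of 9 is 11.1%, below the 23.4% of all genes, and the median was 0.05.

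Of the trithorax and MLL proteins, which keep HOX genes active, 3 of 18 tested were called, with a median of 0.02. That was 16.7%, below the 23.4% of all genes. KMT2D, a methyltransferase for histone H3 lysine 4, had 165 ± 1.61 CPM in NC and 125 ± 0.609 in SPNS2 (log2 fold change -0.40, edgeR adjusted p = 0.0136). KMT2B (0.40, edgeR adjusted p = 0.0353) and RBBP5, a subunit shared by the MLL complexes (0.55, edgeR adjusted p = 0.0305), were higher. KMT2D and KMT2B were called in 0 of 4 fits with a library left out and RBBP5 in 1. Of 27 Polycomb genes, 4 were higher and 1 lower, with a median of 0.05. The share called, 18.5%, was also below that of all genes. PHC2, a subunit of Polycomb repressive complex 1, had 129 ± 0.215 CPM in NC and 204 ± 6.38 in SPNS2 (log2 fold change 0.66, SE 0.06, edgeR adjusted p = 0.00498), and kept its call in 4 of 4 such fits. BMI1, of the same complex, was the lower one, at 81.6 ± 7.73 CPM in NC and 48.7 ± 6.96 in SPNS2 (log2 fold change -0.75, edgeR adjusted p = 0.0256), with 1 of 4 fits keeping the call. MTF2 and RNF2 were higher (log2 fold changes 0.52 and 0.67, edgeR adjusted p = 0.0321 and 0.0348), each called in at most 1 of 4 fits. The fourth higher gene was JARID2 (0.26, edgeR adjusted p = 0.0472), which lies outside the naming rule and was called in 0 of 4 fits (0.129 to 0.167).

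The retinoid and axial regulators, which act upstream of HOX genes, moved in both directions: 2 of 14 tested were higher and 4 lower. That was 42.9% called, with a median of -0.04, beside 23.4% of all genes tested (12.1% higher and 11.3% lower). The difference between these shares was not tested. RARB, a retinoic acid receptor whose own gene answers to retinoic acid, had 8 and 24 counts in NC and 209 and 266 in SPNS2. That was 0.481 ± 0.328 against 7.38 ± 0.837 CPM (log2 fold change 3.92, SE 0.51, edgeR adjusted p = 0.0121), with all SPNS2 libraries above all NC libraries. CYP26B1, an enzyme that degrades retinoic acid, had 675 and 725 counts in NC and 191 and 214 in SPNS2 (21.3 ± 0.346 and 6.31 ± 0.148 CPM, log2 fold change -1.75, SE 0.12, edgeR adjusted p = 0.00326). Both kept their calls in 4 of 4 fits with a library left out. RARG, another receptor, was lower, at 110 ± 1.9 CPM in NC and 76.2 ± 0.493 in SPNS2 (log2 fold change -0.53, edgeR adjusted p = 0.00891), and lost its call without NC replicate 1 (0.0502). NR6A1, a nuclear receptor of trunk development, was higher, at 4.18 ± 0.488 and 8.63 ± 0.633 CPM (log2 fold change 1.05, edgeR adjusted p = 0.0247), and lost its call in all 4 such fits. The other 2 lower genes, ALDH1A2 and CDX1, lay outside the naming rule and were named after their values were seen. ALDH1A2, which makes retinoic acid, had 60 and 90 counts in NC and 0 and 5 in SPNS2 (edgeR adjusted p = 0.0339). CDX1 had 12 and 12 against 0 and 0 (0.046). Like CDX1, ALDH1A2 passed the filter on low counts through the NC libraries alone. With a library left out, ALDH1A2 was called in 2 of 4 fits (edgeR adjusted p 0.025 to 0.124), with log2 fold changes of -9.19 to -3.87. CDX1, which passed the filter on low counts through the NC libraries alone, was called in 0 of 2 such fits (0.14 to 0.141).

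Of 33 tested homeobox genes outside the clusters, 15 were called (45.5%), 6 higher and 9 lower, with a median of -0.23. Of all genes tested, 23.4% were called, 12.1% higher and 11.3% lower. The differences from these shares and from the 25.0% of the HOX genes were not tested. Among the 15 were EN2 (10 and 17 counts in NC, 0 and 0 in SPNS2) and LHX6 (0 and 0, then 28 and 22). These genes, outside the naming rule, each passed the filter on low counts through 1 group alone. Of the 71 listed, 22 had no counts in any library. MEOX2, a mesodermal homeobox gene, had 1463 and 1502 counts in NC and 25 and 31 in SPNS2 (45.1 ± 0.708 and 0.871 ± 0.0827 CPM, log2 fold change -5.69, SE 0.14, edgeR adjusted p = 0.000649). PRRX2, a mesenchymal homeobox gene, had 919 and 989 against 48 and 29 counts (log2 fold change -4.58, SE 0.31, edgeR adjusted p = 0.00301). IRX3 and IRX5, neighbours on chromosome 16, moved in opposite directions: IRX3 from 8.14 ± 0.388 to 21 ± 2.89 CPM (log2 fold change 1.37, edgeR adjusted p = 0.00914), and IRX5 from 14.2 ± 0.719 to 5.4 ± 0.77 CPM (-1.39, edgeR adjusted p = 0.0109). MEOX2, PRRX2 and IRX3 kept their calls in all 4 fits with a library left out, and IRX5 in 3 (0.0545 without NC replicate 2). By comparison, the called HOXC genes changed by 2.2-fold and 1.93-fold.

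**Figure D5:**
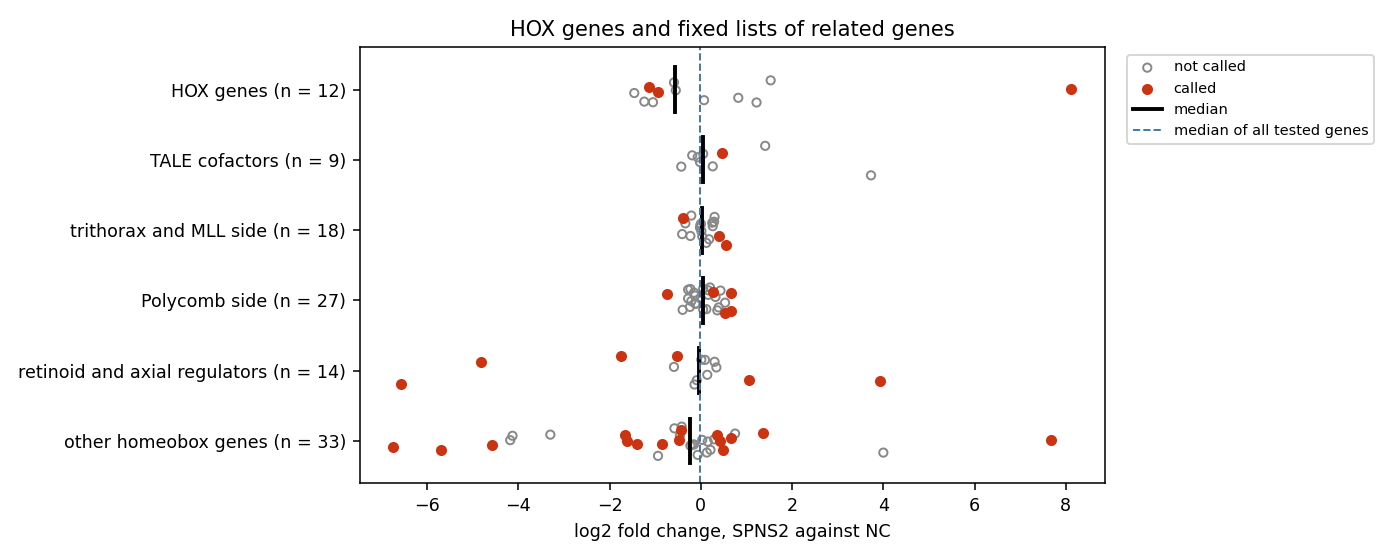
Log2 fold change of SPNS2 against NC for each tested gene of the HOX genes and of 5 fixed lists of related genes, with called genes filled, the median of each list as a bar and the median of all tested genes (-0.01) as a dashed line. The HOX median is -0.57, and the medians of the other lists lie between -0.23 and 0.05.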

How the data were processed

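The authors deposited raw counts per gene for 4 libraries. Reads were trimmed with Trim Galore 0.6.9, aligned with HISAT2 2.2.1 to hg38 and counted with featureCounts, given as version 0.3, per the submitters' processing notes. Which annotation was counted, whether strand was used and how multiply placed reads were handled is not given in the sources used here.

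Counts were tested in R 4.3.3 with edgeR 4.0.16 (TMM, filterByExpr with a minimum count of 10 and a total of 15, quasi-likelihood test, Benjamini-Hochberg over all tested genes), after a check on simulated data. DESeq2 1.42.0, limma-voom 3.58.1, other scalings, other filters, a replicate block, each library left out and removal of chromosome medians were the alternatives. Libraries held 31353373 to 34125159 counts, and a group with no counts was taken as at most 3 counts over the group for bounds. Positions, exon lengths and transcript sequences (for shared 50-base words) came from GENCODE 29 on GRCh38 (the assembly also called hg38), matched by Ensembl ID for 58254 of 61806 genes and 39 of 39 HOX genes. No column was left out. The values of 1 HOX gene, counted in the totals, and the sequences of the genes are not reported here.

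The HOX genes, the related lists and the tests were chosen with earlier results of these data known. Per-library values are given for HOX genes that were called or averaged at least 1 CPM, the rest by counts. Of each list, up to 4 called genes with the smallest p are named. The exceptions are the HOXA, HOXB and HOXD flanks, given by number and share called, and the cell type markers, given mostly by sums. Genes outside that rule are named as such, flank the HOXC cluster or are the 2 tested cluster RNAs. The lists were TALE cofactors, cluster RNAs, flanking genes of each cluster, trithorax and MLL genes, Polycomb genes, retinoid and axial regulators, other homeobox genes and markers of 6 cell types. Replicate numbers appear in the labels of both groups, but the deviations of same-numbered libraries were not correlated, so the fit without the block is the one given.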

Additional observations from a re-analysis of the deposited data

How the results depend on the processing

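Over all alternatives, the 12 tested HOX genes gave 150 values, of which 130 kept their direction and side of the threshold, 14 lost a call, 4 gained one and 2 reversed: HOXC9 ran from -0.23 (without NC replicate 1) to 0.44 (without NC replicate 2), and was -0.12 without SPNS2 replicate 1. The number of genes called was 4171, against 1976 with the replicate block and 1712 to 2144 with a library left out. HOX genes called higher, all in HOXD, numbered 1, against 0 with a mean of at least 1 CPM, where HOXD4 was not tested, 0 with the replicate block and 0 to 1 with a library left out. HOX genes called lower, all in HOXC, numbered 2, against 1 without a filter on low counts, 1 with chromosome medians removed, 0 with the replicate block and 0 to 1 with a library left out. HOXC4 had an edgeR adjusted p of 0.0652 without the filter and 0.0731 with chromosome medians removed. HOXC5 joined the calls with DESeq2, upper-quartile scaling (edgeR adjusted p = 0.0474), library totals (0.0462) and the 1 CPM filter (0.0473), which made 3 lower. HOXB had 0 calls under every alternative run; HOXA genes were tested only without the filter and with a library left out, with 0 calls there. Of 8 HOXC genes ordered by level per length in NC (HOXC8 and HOXC10, equal as printed, were ordered before rounding), 4 kept their rank with exon length free of other genes and 5 with coding length. Of 540 values for 42 named or called genes of the lists, 368 were on the same side and 172 lost a call, none reversed. The cause was not tested, but fits with a library left out have fewer samples. Same-numbered libraries had a correlation of deviations of -0.0778 (Pearson; Spearman -0.0274), so the replicate block rests on a shared number only. At this depth 27 of the 39 HOX genes had too few counts to be tested.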

Other observations

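A noncoding gene inside the HOXC cluster and 2 noncoding genes beside HOXD were chosen after their values were seen. The lincRNA ENSG00000260597 (chr12:54019910-54022589, hg38, plus strand), between the exons of HOXC4 and within the span of HOXC6, had 124 and 91 counts in NC and 54 and 58 in SPNS2 (log2 fold change -0.91, SE 0.29, edgeR adjusted p = 0.091). LINC01116, 491.9 kb from the middle of the HOXD cluster, had 14 and 24 counts in NC and 115 and 146 in SPNS2 (log2 fold change 2.81, SE 0.35, edgeR adjusted p = 0.011), and its call was lost without SPNS2 replicate 2 (0.0503). LINC01117, 504.9 kb from the middle, had 0 and 0 counts in NC and 14 and 15 in SPNS2, at least 9.9-fold higher against 3 counts over the NC group (edgeR adjusted p = 0.0378). It passed the filter on low counts through the SPNS2 libraries alone, and was not called with the replicate block (0.13), without the filter (0.0618) or in the 3 fits with a library left out that held it (0.125 to 0.181). Both lie on the same side of HOXD4, and every SPNS2 library was above every NC library.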
